A study of Cucumis melo with 4 samples.

Results

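The comparison set 2 melon (Cucumis melo) libraries of genotype aa, from plants with bisexual flowers, against 2 libraries of genotype AA, from plants with female flowers, across all 76260 assembled unigenes (transcripts assembled from the reads). All 4 libraries of the series took part. The aa side held the hermaphrodite library, labelled aaGG, whose plants bear only bisexual flowers, and the andromonoecious library, labelled aagg, whose plants bear male and bisexual flowers. The AA side held the monoecious library, labelled AAGG, from plants with male and female flowers, and the gynoecious library, labelled AAgg, from plants with female flowers only. The headers of the deposited tables give the g genotype of the aa pair the other way round, with andromonoecious as aaGG and hermaphrodite as aagg. The allele of a is the same in both sources.

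Each library is a bulk of total RNA mixed in equal amounts from recombinant inbred lines of 1 sex type, with the number of lines not stated. All bulks mix leaf, axillary bud and flower bud tissue of 4 stages, so a level averages over organs and lines. In such bulks, fewer cells of a type and less RNA per cell cannot be told apart. The sides therefore differ at a, and each side holds both alleles of g. The 2 libraries of a side are of different sex types and differ at g, so they are not replicates of 1 line mix. In the test without a covariate, the spread within a side includes that difference. A p-value here speaks only of how far these 4 bulks lie apart.

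The a locus of melon is known as a gene for ACC synthase, the enzyme that makes the precursor of ethylene, and its active form arrests stamens in female flowers. Plants of genotype aa lack that activity and keep stamens beside the carpel. The g locus is known to encode a zinc finger protein of the WIP type, which arrests the carpel in male flowers. On that role male flowers go with G, which is how the table headers, unlike the labels, give the aa pair. Which source is right was not tested. A change of activity in the a protein need not change its RNA level.

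The libraries held 27.04 M reads (hermaphrodite), 25.51 M (andromonoecious), 26.39 M (monoecious) and 26.09 M (gynoecious), and between 66492 and 69811 unigenes had a read. The 3 others shared a flow cell that the hermaphrodite library did not. Names listed for pollen and anther, floral organ, leaf, dividing cell and carpel genes were all found, with no listed member at 0 reads in every library. The summed RPKM of the 5 pollen and anther unigenes was 40.4 in the hermaphrodite and 19.7 in the andromonoecious library, against 33.2 in the monoecious and 34.3 in the gynoecious. The 22 floral organ unigenes summed to 125 RPKM (hermaphrodite) and 183 RPKM (andromonoecious) on the aa side, and to 149 RPKM (monoecious) and 211 RPKM (gynoecious) on the AA side. Neither of these sums separated the sides.

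Product names need a caution that comes before any named result. For 1049 unigenes that the authors list as gynoecious over monoecious, the coding sequence (CDS) named there was that of the per-library files for 16, while the per-library files named none for 816 and another CDS for 217. In the authors' match table of 11805 alignments, which is sorted by product name, consecutive unigene numbers often stand close together. Of 336 pairs of consecutive numbers that were well matched and whose names began with different words, 159 (47.3%) lay within 5 lines of each other. Unigene39330, Unigene39331, Unigene39333 and Unigene39334, for example, are listed as Biotin synthase, Biotin carboxylase 1, Biotin/lipoyl attachment and Biotin carboxyl carrier protein. The 85 unigenes listed as cytosolic ribosomal proteins, which plant cells make in large amounts, had a median level of 3.7 RPKM. That was near the 2.7 RPKM of all 8266 unigenes with a described product. The highest of the 85 had a mean over the libraries of 2650 RPKM, so not all were low. Which listed name belongs to which unigene could not be settled from these files, and the cause was not tested. Unigenes are therefore given by number with the product "as listed", and a role stated for a product is background on that name.

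Few unigenes separated aa from AA beyond the spread between libraries. Of 49319 unigenes tested with limma on log2(RPKM + 1), 6 (0.0122%) passed an adjusted p of 0.05, 2 higher in aa (0.00406%) and 4 lower (0.00811%), while 1411 (2.86%) had an unadjusted p under 0.05. None carries a described product. These 6 were close to an on/off pattern: the low side had at most 4 reads in a library and the high side at least 249.

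Unigene44708, of 579 nt, had 27.7 RPKM (433 reads) in the hermaphrodite and 39.5 RPKM (583 reads) in the andromonoecious library, against 0.131 RPKM (2 reads) in the monoecious and 0 reads in the gynoecious. Both aa libraries stood far above both AA libraries. Its log2 difference, aa minus AA, was 5.0 ± 0.53 (standard error, 2 libraries a side; limma adjusted p = 0.0306). By reads summed over a side, the ratio was 507 (95% exact binomial interval 140 to 4190, for counting error only). Unigene45921, of 326 nt, had 28.2 RPKM (249 reads) in the hermaphrodite and 37.4 RPKM (311 reads) in the andromonoecious library, against 0.349 RPKM in the monoecious and 0.353 RPKM in the gynoecious, with 3 reads in each. The difference was 4.63 ± 0.51 on the log2 scale (limma adjusted p = 0.0373). The files list Unigene45921 as an uncharacterized protein, so its role is unknown here.

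Unigene44707, of 617 nt, was not detected in aa: it had 0 reads in both aa libraries, against 139 RPKM (2264 reads) in the monoecious and 52.2 RPKM (840 reads) in the gynoecious library. With the aa libraries set at a floor of 3 reads each, the closest libraries of the sides were at least 274-fold apart. Its log2 difference was -6.43 ± 0.57 (limma adjusted p = 0.0123). Unigene72225, of 528 nt, likewise had 0 reads in both aa libraries, against 54.3 RPKM (756 reads) in the monoecious and 113 RPKM (1551 reads) in the gynoecious library. This gave a closest-library fold of at least 244 and a log2 difference of -6.31 ± 0.53 (limma adjusted p = 0.0123). The other 2 unigenes that fell had 0 to 4 reads in each aa library, against 281 to 871 reads in each AA library (limma adjusted p = 0.0133 and 0.0373).

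These calls depend on the library and the tool. Without the hermaphrodite library, which also leaves 1 flow cell, limma called 0 unigenes (713 at an unadjusted p under 0.05), and without the andromonoecious library it called 0 (548). Without the monoecious library it called 556 and without the gynoecious 31, in both cases with all 6 among them. edgeR's quasi-likelihood test on recovered reads called 0 of 49319 (1013, or 2.05%, at an unadjusted p under 0.05), with adjusted p from 0.134 to 0.966 for the 6. DESeq2 on the same reads called 26 of 33064 (0.0786%), 16 higher (0.0484%) and 10 lower (0.0302%) in aa, including all 6.

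**Figure D1:**
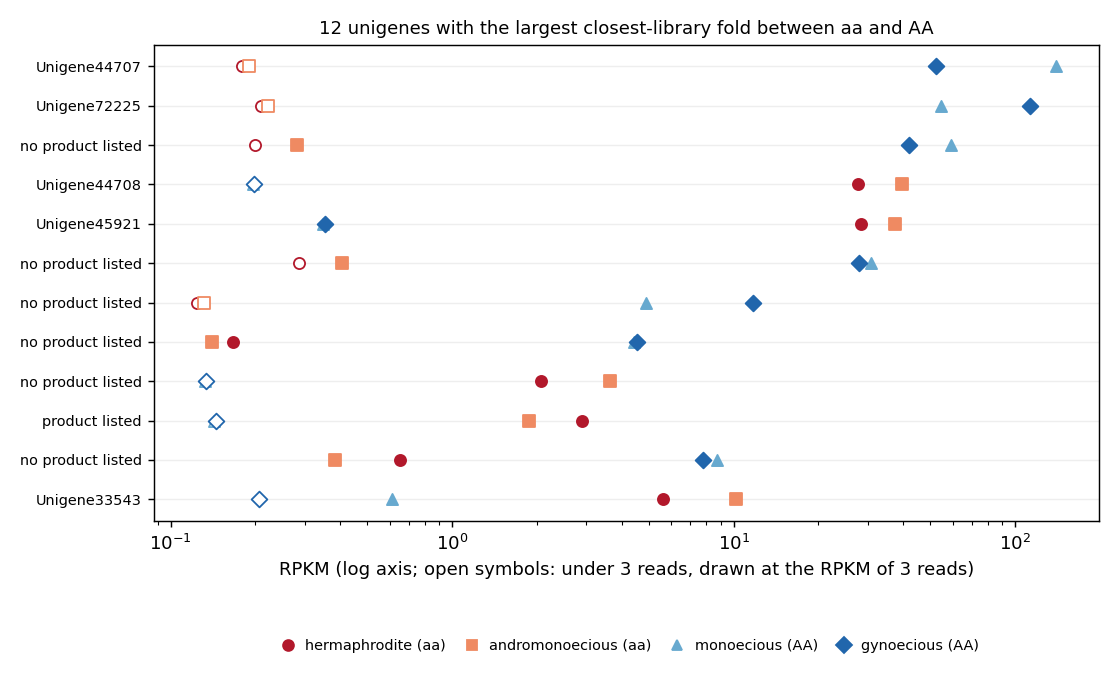
RPKM (log axis) in each library for the 12 unigenes with at least 100 reads whose closest libraries lay farthest apart, the aa libraries in red and orange and the AA libraries in blue. Open symbols mark libraries with under 3 reads, drawn at the RPKM of 3 reads. In Unigene44707 and Unigene72225 both aa libraries are at that floor, and in Unigene44708 both AA libraries are.

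Of the 6 called unigenes, Unigene44707 (lower in aa) and Unigene44708 (higher in aa) have consecutive numbers and opposite patterns. Such neighbours were the minority. Among unigenes at least 4-fold apart, 42 had a consecutive number of at least 50 reads. In 8 of these 42, the sides of such a neighbour did not overlap in the opposite direction. A neighbour on either side could count, and over all tested unigenes 12.8% had both aa libraries above both AA libraries and 12.4% below. Unigene44707 and Unigene44708 were both among the 8, each as the neighbour of the other. Together they summed to 27.7 RPKM in the hermaphrodite and 39.5 RPKM in the andromonoecious library, against 139 RPKM in the monoecious and 52.2 RPKM in the gynoecious. Unigene71632, not consecutive with any called unigene and chosen after its values were seen, had 42 reads in the hermaphrodite and 12 in the andromonoecious library, against 304 in the monoecious and 328 in the gynoecious, the opposite of Unigene45921. Their listed matches, to MELO3C002039 and MELO3C002037, have the same identity (82.59%) and length (201 nt). Summed, the 2 unigenes reached 31.3 RPKM (hermaphrodite) and 38.3 RPKM (andromonoecious) on the aa side and 23.3 RPKM (monoecious) and 25.4 RPKM (gynoecious) on the AA side. In RPKM the sum still did not overlap between sides, at a much smaller distance than either unigene alone. In reads the sums overlapped, with 291 (hermaphrodite) and 323 (andromonoecious) against 307 (monoecious) and 331 (gynoecious). The 2 unigenes differ in length, 326 nt for Unigene45921 and 501 nt for Unigene71632, so whether the sums separate depends on the measure. Whether these pairs are versions of 1 transcript was not tested, since the sequences were not used here.

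A count without a model gives a wider view. Among 34861 unigenes with at least 100 reads in total, the closest libraries of the sides were at least 4-fold apart for 53 (0.152%), 34 with aa higher (0.0975%) and 19 with aa lower (0.0545%). At 2-fold the count was 484 (1.39%), 311 higher (0.892%) and 173 lower (0.496%) in aa. The same 4-fold count was 62 (0.178%) for labelled gg against labelled GG libraries and 133 (0.382%) for libraries with against without male flowers. By the g genotype of the table headers, the split by male flowers is also the split of GG against gg. These 3 comparisons use the same 4 libraries. Sides that merely did not overlap were common: both aa libraries were above both AA libraries in 6337 of the 49319 tested unigenes (12.8%) and below them in 6111 (12.4%), with a median log2 difference over all tested of 0.004.

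**Figure D2:**
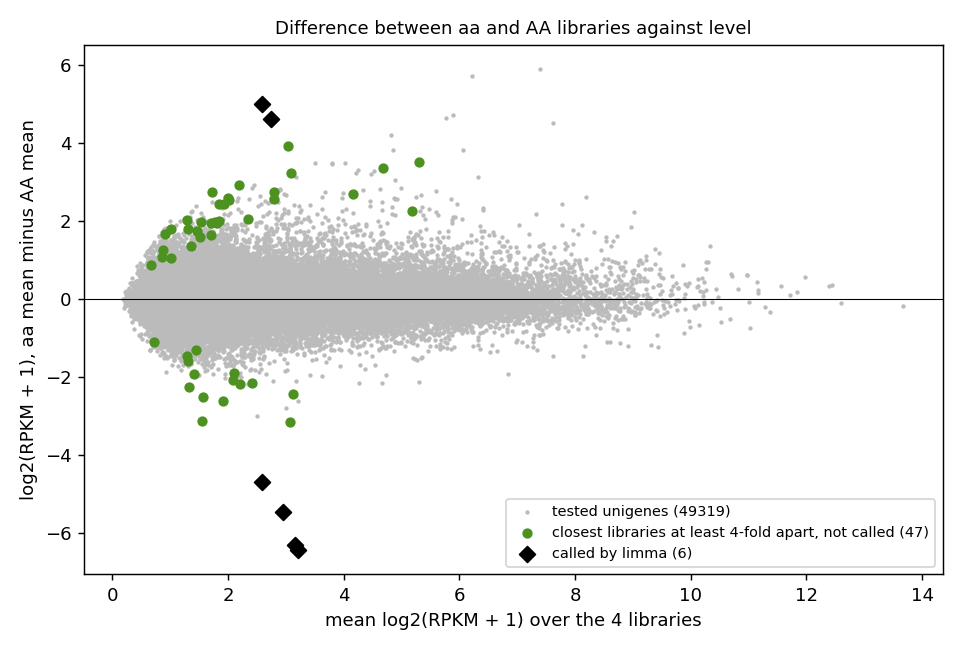
Difference between the aa and AA means of log2(RPKM + 1) against the mean over the 4 libraries, for 49319 tested unigenes (grey). Green points have their closest libraries at least 4-fold apart without passing the test, and black diamonds are the 6 called. The 6 called unigenes lie outside the grey cloud at their level, 2 above it and 4 below.

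Within the 2-fold set the libraries of a side were not alike. Among the 311 unigenes higher in aa, the gynoecious library was the lowest in 207 and the monoecious in 104. The andromonoecious library was the highest in 181 of them and the hermaphrodite in 130. Among the 173 lower in aa, the lowest library was the hermaphrodite in 86 and the andromonoecious in 87. The gynoecious library was the highest in 102 of the 173 and the monoecious in 71. At 4-fold the gynoecious library was the lowest in 23 of the 34 higher in aa and the highest in 13 of the 19 lower in aa. No CDS was listed for 61.8% of the 34 and 68.4% of the 19, against 79.5% of all unigenes with 100 reads. The limit of 4-fold fell between Unigene30769, listed as pheophorbide a oxygenase, at 4.01-fold, and Unigene50165, listed as a pentatricopeptide repeat protein, at 3.99-fold. Unigene30769 had 67.8 RPKM in the hermaphrodite and 90.4 RPKM in the andromonoecious library, against 14.3 RPKM in the monoecious and 16.9 RPKM in the gynoecious. Pheophorbide a oxygenase is a step of chlorophyll breakdown.

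With the g genotype of the table headers as a covariate, limma called 29 unigenes (0.0588%), 23 higher (0.0466%) and 6 lower in aa (0.0122%), the 6 above among them. In all 23 the andromonoecious library was the highest, and in 22 of them the levels ran in the order andromonoecious, hermaphrodite, monoecious, gynoecious. Unigene17117, chosen after its values were seen, had 12029 reads in the hermaphrodite and 22467 in the andromonoecious library, against 5948 in the monoecious and 0 in the gynoecious. Its AA libraries differed more from each other than its aa libraries did. With the covariate its difference was 5.91 ± 1.07 on the log2 scale (limma adjusted p = 0.0452). Unigene39330, Unigene39331 and Unigene39333, of the run of names on biotin, were among the 23. Unigene39330 had 2824 reads in the hermaphrodite and 2893 in the andromonoecious library, against 646 in the monoecious and 74 in the gynoecious. The labelled g genotype as the covariate left 6 calls.

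**Figure D3:**
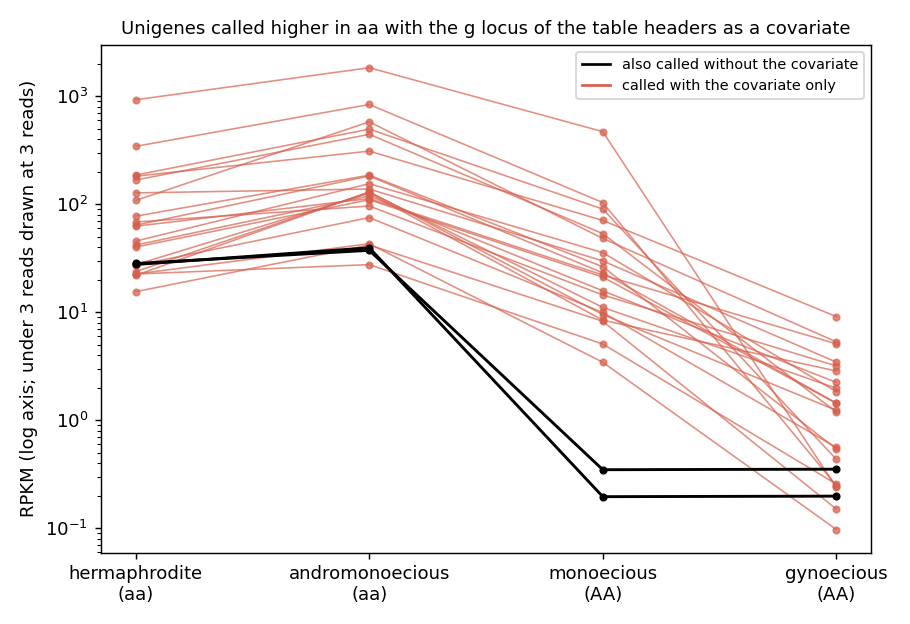
RPKM (log axis) by library for the 23 unigenes that limma called higher in aa with the g genotype of the table headers as a covariate; lines join the values of 1 unigene and levels under 3 reads are drawn at 3 reads. All 23 lines are highest in the andromonoecious library. The 2 black lines, called without the covariate too, change little within each side next to the distance between sides. The red lines are all lowest in the gynoecious library.

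Unigenes with a well matched described product show which listed functions lay farthest apart. A product counted as well matched at 95% identity or more over at least 100 nt and 30% of the unigene. Of 2479 such unigenes with at least 100 reads, both aa libraries were above both AA libraries in 276 (11.1%) and below them in 282 (11.4%), near the shares over all tested. The 15 with the largest closest-library fold in each direction are described here. All 30 had a limma adjusted p of 1.0, so none passed the test and the values are descriptions.

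Unigene33543, listed as para-aminobenzoate synthase (an enzyme on the way to folate), had 5.59 RPKM (84 reads) in the hermaphrodite and 10.2 RPKM (144 reads) in the andromonoecious library, against 0.614 RPKM (9 reads) in the monoecious and 0 reads in the gynoecious. Its closest libraries were 9.11-fold apart and its log2 difference was 2.75 ± 0.57. DESeq2 gave it an adjusted p of 0.015. Unigene13833, listed under the same product, was matched less closely and was not called by DESeq2. It had 201 reads in the hermaphrodite and 251 in the andromonoecious library, against 41 in the monoecious and 0 in the gynoecious. The authors' deposited table for the a locus gives the same reads and length to another product, Vignain (MELO3C002846), so the listed name is in conflict. Both unigenes were highest in the andromonoecious library and undetected in the gynoecious.

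Unigene33002, listed as a cold-induced plasma membrane protein, had 42.8 RPKM in the hermaphrodite and 46.6 RPKM in the andromonoecious library, against 9.75 RPKM in the monoecious and 3.61 RPKM in the gynoecious. Its log2 difference was 2.70 ± 0.52, with a DESeq2 adjusted p of 0.0228. Unigene44734, listed as coleoptile phototropism protein 1 (in rice, a protein of the bending response to light), had 56.4 RPKM in the hermaphrodite and 89.5 RPKM in the andromonoecious library, against 16.7 RPKM in the monoecious and 7.02 RPKM in the gynoecious. In all of these, both aa libraries were at least 3.37-fold above the higher AA library. Unigene25642, listed under the same phototropism name with another CDS, had 52.9 RPKM in the hermaphrodite and 29.5 RPKM in the andromonoecious library, against 10.5 RPKM in the monoecious and 2.31 RPKM in the gynoecious.

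Unigene37685, listed as expansin-like A1 (expansins loosen cell walls), had 5.23 RPKM in the hermaphrodite and 6.71 RPKM in the andromonoecious library, against 1.24 RPKM in the monoecious and 0.417 RPKM in the gynoecious. Unigene22567, listed as TOPLESS, a transcriptional corepressor, had 3.96 RPKM in the hermaphrodite and 3.35 RPKM in the andromonoecious library, against 0.668 RPKM in the monoecious and 1.04 RPKM in the gynoecious. Unigene43046, listed as a UBX domain protein, was among the more abundant, with 65.5 RPKM in the hermaphrodite and 62.5 RPKM in the andromonoecious library, against 22.9 RPKM in the monoecious and 18.1 RPKM in the gynoecious. Its aa libraries differed little from each other. The other 8 with aa higher included 2 pentatricopeptide repeat proteins (a family that binds organelle RNA), an importin alpha, a BURP domain protein and a mitochondrial ADP,ATP carrier, with closest-library folds of 2.33 to 3.99.

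On the lower side, Unigene34504, listed as the DNA repair protein XRCC1, had 1.9 RPKM in the hermaphrodite and 2.23 RPKM in the andromonoecious library, against 6.45 RPKM in the monoecious and 59.1 RPKM in the gynoecious. The log2 difference was -2.79 ± 0.83, and the gynoecious library carried most of it. DESeq2 gave it an adjusted p of 0.015. Unigene4660, listed as a serine/threonine kinase, had the largest closest-library fold of the 15, at 4.41, with 10 reads in the hermaphrodite and 5 in the andromonoecious library, against 43 in the monoecious and 62 in the gynoecious. Unigene33020, listed as MYB21, which in Arabidopsis acts in stamen and petal growth, had 2.71 RPKM in the hermaphrodite and 2.87 RPKM in the andromonoecious library, against 5.68 RPKM in the monoecious and 8.11 RPKM in the gynoecious. Its closest libraries were 1.98-fold apart (log2 difference -1.04 ± 0.53).

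Unigene13712, listed as CutA of the chloroplast, had 3.94 RPKM in the hermaphrodite and 3.23 RPKM in the andromonoecious library, against 16.9 RPKM in the monoecious and 8.91 RPKM in the gynoecious. Unigene54022, listed as a calcium-transporting ATPase, had 5.51 RPKM in the hermaphrodite and 6.0 RPKM in the andromonoecious library, against 11.4 RPKM in the monoecious and 23.4 RPKM in the gynoecious. Unigene44360, listed as zinc transporter 1, had 5.34 RPKM in the hermaphrodite and 7.31 RPKM in the andromonoecious library, against 13.3 RPKM in the monoecious and 16.5 RPKM in the gynoecious. These unigenes had no overlap between sides, at folds of 1.82 to 2.26 between the closest libraries. The remaining 9, with folds of 1.78 to 3.52, were listed among others as 2 pentatricopeptide repeat proteins, a plastid lipid-associated protein, a glutathione S-transferase and a sterol reductase.

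**Figure D4:**
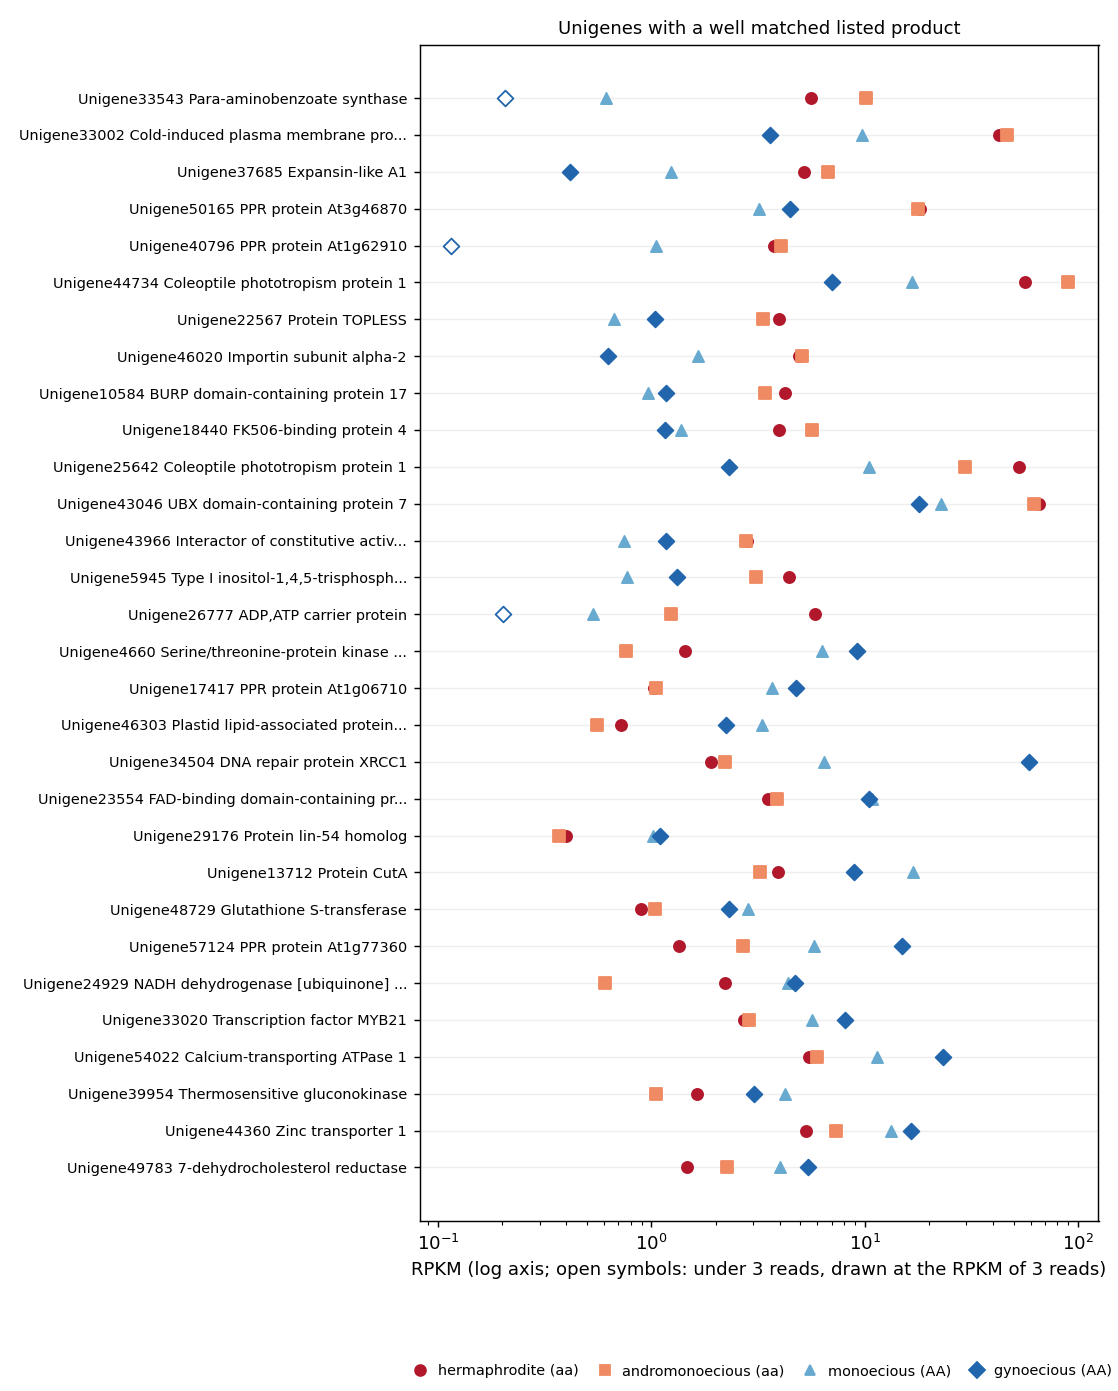
RPKM (log axis) in each library for the 30 well matched unigenes with the largest closest-library fold, the 15 higher in aa above the 15 lower in aa, with the product as listed. Red and orange symbols are the aa libraries, blue symbols the AA libraries, and open symbols libraries under 3 reads drawn at 3 reads. The gynoecious diamond lies far from the monoecious triangle in Unigene34504 and in several unigenes of the upper part.

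The ethylene genes come closest to the a locus itself. Ethylene is made from ACC, which ACC synthases form and ACC oxidases convert. Of 9 unigenes listed under ACC enzymes, 5 were tested, 0 were called by limma (0 at an unadjusted p under 0.05; the smallest was 0.339), and edgeR and DESeq2 called 0 of them. Unigene78052, listed as ACC synthase 7, had 0 reads in the hermaphrodite and 1 in the andromonoecious library, against 2 in the monoecious and 19 in the gynoecious. Unigene78228, listed as ACC synthase CMA101, had 8 reads in the hermaphrodite and 6 in the andromonoecious library, against 1 in the monoecious and 21 in the gynoecious. Unigene78536, a further listed ACC synthase, had 0 reads in the hermaphrodite and 2 in the andromonoecious library, against 0 in the monoecious and 12 in the gynoecious. The sides overlapped in Unigene78228 and Unigene78536. In Unigene78052 they did not overlap, and most of its reads were in the gynoecious library. All 3 had too few reads for the test.

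Unigene9955, listed as melon ACC oxidase 3, had 10.5 RPKM in the hermaphrodite and 11.7 RPKM in the andromonoecious library, against 15 RPKM in the monoecious and 16.1 RPKM in the gynoecious. The sides did not overlap, and the log2 difference was -0.46 ± 0.45. Unigene34982, an ACC oxidase homolog, had 7.2 RPKM in the hermaphrodite and 4.12 RPKM in the andromonoecious library, against 5.29 RPKM in the monoecious and 2.49 RPKM in the gynoecious. Unigene27008, another homolog, had 12 reads in the hermaphrodite and 29 in the andromonoecious library, against 0 in the monoecious and 77 in the gynoecious. Unigene3445 and Unigene57664 had 2 to 26 reads in each library, with overlapping sides, and so did the ACC deaminase Unigene20752 with 511 to 665 reads.

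Among 38 tested unigenes listed for ethylene perception and response, 0 were called by limma (1 at an unadjusted p under 0.05) and 0 by edgeR or DESeq2. Both aa libraries were above both AA libraries in 3 (7.89%) and below them in 5 (13.2%), against 12.8% and 12.4% of all tested unigenes. The list's median log2 difference was 0.01. Unigene41676, listed as ERF011, an ethylene response factor, had 549 reads in the hermaphrodite and 365 in the andromonoecious library, against 289 in the monoecious and 229 in the gynoecious (log2 difference 0.74 ± 0.47). Unigene17325, listed as ERF034, had 62 reads in the hermaphrodite and 31 in the andromonoecious library, against 4 in the monoecious and 15 in the gynoecious.

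Lists tied to flower organs, drawn from the products of the per-library files, showed no call. Their counts of members with both aa libraries above or below both AA libraries stand against 12.8% above and 12.4% below over all tested unigenes. The 19 tested unigenes of the floral MADS list, factors that set organ identity and flowering time, had a median log2 difference of -0.16, with 1 above (5.26%) and 2 below (10.5%) in both aa libraries. Unigene18466, listed as SVP, a repressor of flowering in Arabidopsis, had 70 reads in the hermaphrodite and 23 in the andromonoecious library, against 13 in the monoecious and 13 in the gynoecious. The carpel list held 5 tested members with a median of 0.57, 2 above and 2 below in both aa libraries. One of them, Unigene22020, listed as SPATULA, a carpel growth factor in Arabidopsis, had 177 reads in the hermaphrodite and 255 in the andromonoecious library, against 110 in the monoecious and 117 in the gynoecious. The pollen and anther list held 7, with 1 above in both aa libraries: Unigene36443, listed as MALE STERILITY 1, a tapetum regulator in Arabidopsis, had 24 reads in the hermaphrodite and 17 in the andromonoecious library, against 2 in the monoecious and 15 in the gynoecious. Unigene49951, chosen after its values were seen, has no product there and is in no list. The authors' deposited table for the a locus gives its reads to ABORTED MICROSPORES. It had 2305 reads in the hermaphrodite and 7396 in the andromonoecious library, against 1759 in the monoecious and 90 in the gynoecious. The main limma test did not call it. With the g genotype of the table headers as a covariate, limma did (adjusted p = 0.0343).

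Among the 29 of 35 lists with at least 10 tested members, abscisic acid, sugar, folate and expansin products had the largest shares with aa higher, against 12.8% above and 12.4% below over all tested unigenes. In the abscisic acid list both aa libraries were above both AA libraries in 6 of 17 (35.3%) and below them in 0, with a median of 0.32. Unigene22277, listed as abscisic acid 8'-hydroxylase 1, the enzyme that breaks the hormone down, had 62.5 RPKM in the hermaphrodite and 63.5 RPKM in the andromonoecious library, against 25.7 RPKM in the monoecious and 16.2 RPKM in the gynoecious (log2 difference 1.58 ± 0.46). Unigene26710, listed as NCED1, the enzyme of the key step of its synthesis, had 17.6 RPKM in the hermaphrodite and 15.8 RPKM in the andromonoecious library, against 6.08 RPKM in the monoecious and 10.6 RPKM in the gynoecious. Listed enzymes of both breakdown and synthesis thus lay on the same side. Only 1 of these 17 was well matched, and its difference was -0.20.

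In the sugar transport and cleavage list, 9 of 29 (31.0%) were above and 2 (6.9%) below in both aa libraries, against 12.8% and 12.4% of all tested, with a median of 0.22. Unigene20028 and Unigene20029, both listed as sucrose synthases, which split sucrose in sink tissue, had consecutive numbers. Unigene20028 had 10.6 RPKM in the hermaphrodite and 26.4 RPKM in the andromonoecious library, against 8.85 RPKM in the monoecious and 1.12 RPKM in the gynoecious. Unigene20029 had 6.87 RPKM in the hermaphrodite and 9.06 RPKM in the andromonoecious library, against 4.15 RPKM in the monoecious and 0.4 RPKM in the gynoecious. The gynoecious library set most of both differences. The folate and pterin list had 3 of 10 (30%) above and 0 below, 2 of them Unigene33543 and Unigene13833, with a median of 0.13 over the list and 0.01 over its 7 well matched members. In the expansin and xyloglucan list 9 of 33 (27.3%) were above and 4 (12.1%) below, with a median of 0.10. Unigene6927, listed as expansin-A4, had 612 reads in the hermaphrodite and 752 in the andromonoecious library, against 306 in the monoecious and 405 in the gynoecious (log2 difference 0.91 ± 0.45).

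The cytochrome P450 list had 8 of 46 (17.4%) above and 0 below, with a median of 0.25, and the pectin enzyme list 7 of 42 (16.7%) above and 0 below, with a median of 0.05. In the other direction, the MYB and bHLH list had 6 of 71 (8.45%) above and 13 (18.3%) below, with a median of -0.08. The chromatin and small RNA list had 0 of 39 above, and its 5 below (12.8%) were near the 12.4% of all tested unigenes, where 12.8% were above. The large lists lay near all tested unigenes: 38 of 263 ubiquitin ligases and F-box proteins (14.4%) were above and 34 (12.9%) below, and 25 of 212 receptor-like kinases (11.8%) above and 20 (9.43%) below. Auxin products had 12 of 82 above and 12 below (14.6% each). Unigene24078, listed as auxin-induced 5NG4, had 39 reads in the hermaphrodite and 41 in the andromonoecious library, against 157 in the monoecious and 489 in the gynoecious (log2 difference -2.18 ± 0.62). Of 1673 tested members of the 35 lists, limma called 0, against 0.0122% of all tested, with 48 at an unadjusted p under 0.05, a share near the 2.86% of all tested. edgeR called 0 of them. DESeq2 called 4, a larger share than the 0.0786% of all it tested: Unigene33543, Unigene33002, Unigene34504 and Unigene24078. The lists were written with earlier results of these data known, so the larger share is not a result about them.

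**Figure D5:**
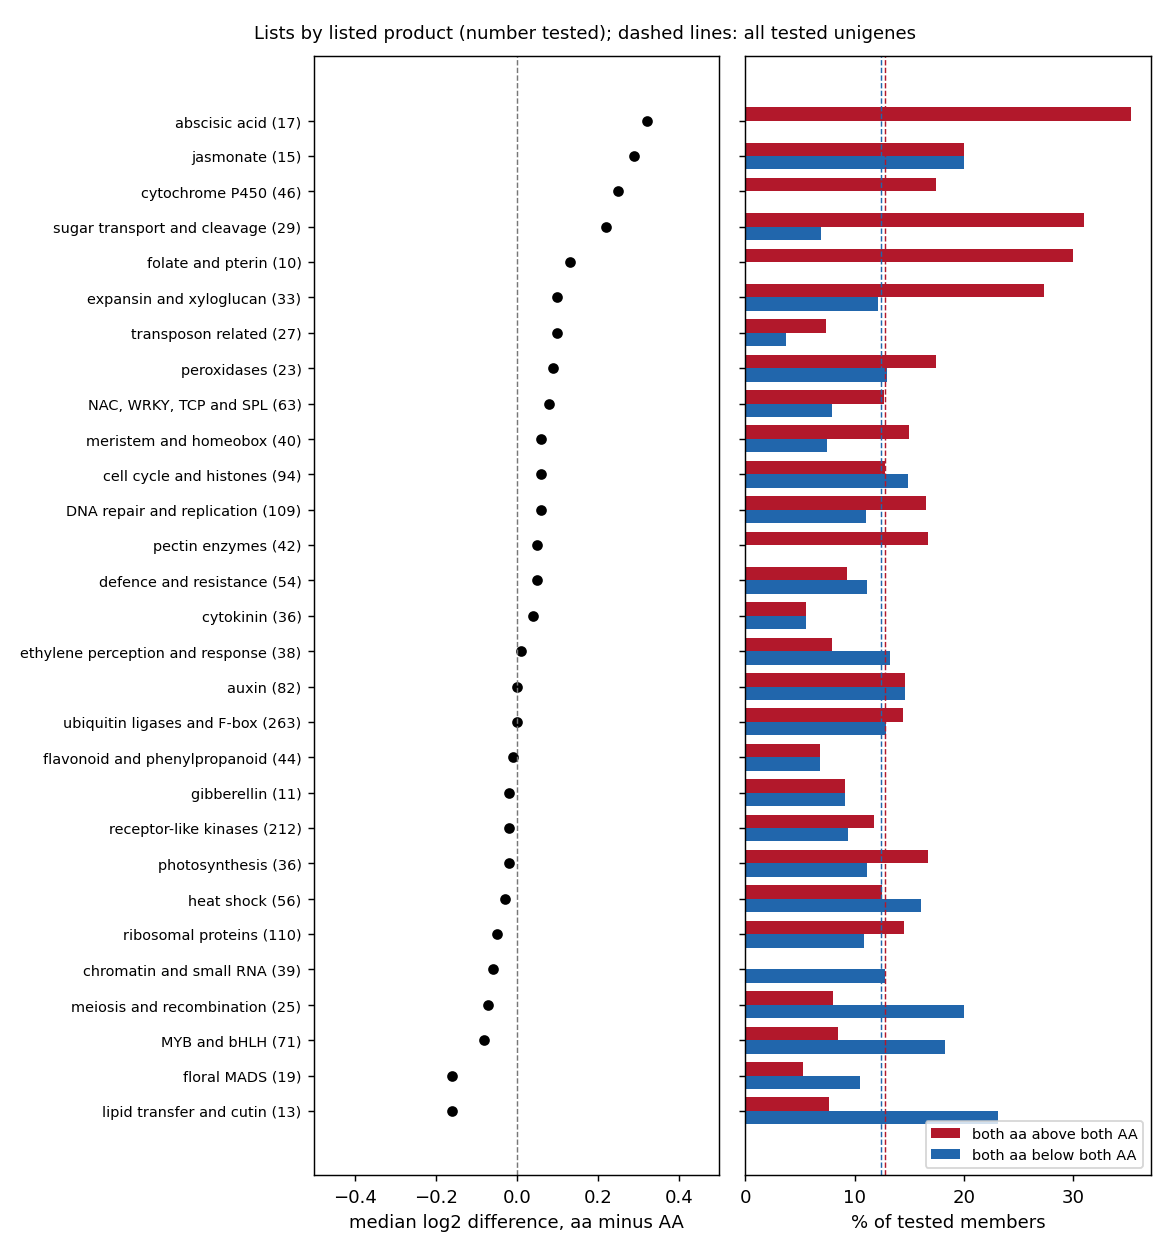
Left, the median log2 difference (aa minus AA) for the 29 lists with at least 10 tested members, the number tested in brackets. Right, the percent of tested members with both aa libraries above (red) or below (blue) both AA libraries. Dashed lines give the same over all 49319 tested unigenes, and list medians lie between -0.16 and 0.32.

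The authors deposited a table of 128 CDS for the a locus, drawn from their pairs andromonoecious and monoecious, and hermaphrodite and gynoecious. The levels of all 128 entries were found as those of a unigene in the per-library files, but only 4 of these unigenes carry the same CDS there and 106 carry none. Listed reads can exceed the recovered ones. MELO3C011335 is listed with 84 reads in the hermaphrodite library and 1054 nt, while its unigene, Unigene44916, was recovered with 42 reads there and 527 nt. The reads listed for a zinc finger CCCH protein (MELO3C015436) are those of Unigene44708, which carries no CDS. Its listed log2 ratios in the authors' deposited table, which run AA over aa, were -14.76 for gynoecious over hermaphrodite and -8.24 for monoecious over andromonoecious. For a desiccation-related protein (MELO3C016030) this table lists 37 reads in the hermaphrodite and 22 in the andromonoecious library, against 0 in the monoecious and 2 in the gynoecious. The per-library files give that CDS to Unigene26794, with 4 reads in the hermaphrodite and 8 in the andromonoecious library, against 20 in the monoecious and 22 in the gynoecious. The direction for that product thus depends on the file.

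By its listed reads, the sides did not overlap for 59 of the 128 (46.1%), with 41 higher and 18 lower in aa. This share cannot be read against the 25.2% of all tested unigenes, since the entries were chosen by differences between these libraries. By reads, both pairs of the table headers were higher in aa for 50 and lower for 20, and lay in opposite directions for 55. The ratios in the authors' deposited table put 43 higher and 24 lower in aa and 61 in opposite directions. Of the 128 rows, 64 had at least 100 reads. In 32 of the 128, all 4 libraries had a read and both listed log2 ratios were those the reads give, within 0.01. Rows with 0 reads in a library could not be checked in this way, so the remaining rows are not all in conflict. Reads and ratios still often differ in this table. The entry MELO3C015692, for example, had 39 reads in the hermaphrodite and 24 in the andromonoecious library, against 18 in the monoecious and 12 in the gynoecious, while the authors' deposited table lists log2 ratios of AA over aa of 5.31 and 3.44. Higher in aa were also entries listed as 4-coumarate-CoA ligase 1, which had 25 reads in the hermaphrodite and 19 in the andromonoecious library, against 0 in the monoecious and 0 in the gynoecious, and as a U-box protein, which had 56 reads in the hermaphrodite and 55 in the andromonoecious library, against 4 in the monoecious and 10 in the gynoecious. An entry listed as ethylene-responsive factor 4 had 36 reads in the hermaphrodite and 26 in the andromonoecious library, against 0 in the monoecious and 5 in the gynoecious. The lower entries were led by one listed as the factor bHLH149, with 4 reads in the hermaphrodite and 2 in the andromonoecious library, against 38 in the monoecious and 50 in the gynoecious. Another, listed as a serine carboxypeptidase-like protein, had 7 reads in the hermaphrodite and 6 in the andromonoecious library, against 33 in each AA library.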

How the data were processed

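The authors deposited RPKM (reads per kilobase per M reads) for each library, with read counts, log2 ratios and false discovery rates (a p-value adjusted by the authors) for selected genes; the aligner, assembler and build were not stated in the sources at hand. Per the file headers, library totals allowed whole reads to be recovered from RPKM. The shortest length of 200 to 20000 nt that gave whole reads in all 4 libraries was taken (100% of unigenes). Of 1049 unigenes, 1009 (96.2%) matched the authors' listed counts. Listed lengths were up to 4 times the recovered ones, and recovered reads are then too low by the same factor. limma 3.58.1 with a trended variance and Benjamini-Hochberg adjustment was run on log2(RPKM + 1) for unigenes passing filterByExpr (minimum count 10); the pseudocount of 1 understates changes of low unigenes. edgeR 4.0.16, DESeq2 1.42.0 (on recovered reads), other scalings and covariates were alternatives; the 3 tests and the read recovery were tested on simulated data. The 32 other columns of per-library values in the deposited tables were not used. The closest-library fold divides the lowest RPKM of the higher side by the highest of the lower side, raised to 3 reads. Named unigenes were the 15 per direction with the largest such fold among well matched products with at least 100 reads, the called ones (at most 2 per direction where no product is named), ACC enzymes, up to 4 non-overlapping members per list by log2 difference, and up to 5 entries per direction of the authors' table. Members and lists were chosen with earlier results of these data known. None of 11152 CDS identifiers occurred in the RefSeq table of assembly USDA_Cmelo_AY_1.0. The labels give no replicate numbers; each g genotype holds 1 aa and 1 AA library, and the fits with g as a covariate pair the sides by it. Depth limits values: intervals cover counting error only.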

Additional observations from a re-analysis of the deposited data

Results flagged for a closer look

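Of the 128 entries in the authors' table for the a locus, 55 differed in opposite directions in the pairs of the table headers: andromonoecious against monoecious one way, hermaphrodite against gynoecious the other. The difference between the pairs was not tested, since each side of a pair is 1 library. Among lists, the folate and pterin products (10 tested) had a median log2 difference of 0.76 for hermaphrodite minus gynoecious and of -0.36 for andromonoecious minus monoecious, again without a test.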

How the results depend on the processing

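Against 6 called unigenes, limma called 3 with a pseudocount of 0.1, 3 without the filter and 3 with TMM factors, all among the 6 and all lower in aa. DESeq2 called 26, edgeR 0, and the g genotype of the table headers as a covariate 29. Leaving out 1 library gave 0 to 556 calls, the highest without the monoecious library; the lone library left on a side is then assumed to vary like the other side. Calls numbered 6 with reads summed per CDS.

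Against 53 of 34861 unigenes 4-fold apart there were 484 of the same 34861 at 2-fold. With at least 50 reads there were 112 of 44542 at 4-fold. Leaving out 1 library, an alternative added after the data were seen like all those on overlap, gave 268 to 1197. By construction no such count can fall below 53, since fewer libraries have to agree. The count was again the highest without the monoecious library. Without the filter, 19834 of all 76260 unigenes did not overlap between sides, against 12448 of the 49319 tested. Of 385 list medians under alternatives, 375 moved by less than the spread within sides, and no named unigene reversed past the threshold. Of 1720 values for named unigenes, 27 lost a call and 23 gained one. Only the 6 called unigenes could lose a call, so the 27 are not a share of the 1720. Each of the 6 kept its call in 5 to 9 of its 11 or 12 alternatives, those without 1 library included. The fits with g as a covariate are the paired analysis of the sides, 6 calls when paired by labelled g and 29 when paired by the g of the table headers. With 2 libraries a side and 1 bulk per sex type, differences between bulks and between genotypes cannot be told apart.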
